A study of Homo sapiens with 20 samples.

Results

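CTCF is a zinc finger protein that binds DNA through a long core motif and, together with the ring-shaped cohesin complex, holds the ends of chromatin loops and separates neighbouring domains. Sites with a close match to the core motif usually give strong ChIP-seq peaks, whereas weak peaks are commonly found at poorer matches, at open promoters and at repeats. H3K4me3 is a histone mark of promoters, and H3K27ac marks active promoters and enhancers.

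The weak yet persistent CTCF sites of LNCaP prostate cancer cells comprised 209 regions out of 33377 control sites on chromosomes 1 to 22 and X. They were selected on measured values. A control site was a merged region with a CTCF peak in both control siRNA libraries. Its strength was the mean over these libraries of its largest fold enrichment, the ratio of ChIP signal to local background that the authors' peak caller gave. A member had a strength under a fixed limit, which lay between the strongest member at 12.49 and the next persistent site at 12.51. It also kept a peak in each CTCF siRNA library and was not overlapped by peaks of both low-cell IMR90 CTCF siRNA lists. The last condition removed 45 weak persistent sites. Persistence, control strength and siRNA fold enrichment are therefore description and were not tested.

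LNCaP and IMR90 (lung fibroblast) cells were transfected with 20 nM of a non-targeting siRNA pool (control) or of a CTCF siRNA pool, split after the first transfection and transfected again, and collected at 144 h. For IMR90 the methods name a different transfection reagent, Lipofectamine RNAiMAX. The 20 libraries held 10 groups of 2 libraries each. LNCaP cells were profiled for CTCF, H3K4me3 and H3K27ac, and IMR90 cells for CTCF with both a standard protocol and a low-cell kit. The methods state biological duplicates for ChIP-seq and duplicates for the low-cell kit. The labels do not say whether replicates were separate cultures, and p-values measure only the spread between these libraries. The LNCaP CTCF lists held 37969 and 46293 peaks in control, and 3711 and 7716 after CTCF siRNA. The lists carry no read counts. The methods supplement states sequencing depth, which differs between the LNCaP CTCF libraries and was by far the lowest in CTCF siRNA replicate 1. Depth was not entered in these values, and its part in them was not tested. H3K4me3 regions lay within 1000 bp of a start of KLK2, KLK3, TMPRSS2 and HOXB13 in all 4 H3K4me3 libraries, and of the fibroblast collagen gene COL3A1 in 0 of 4. Other genes used as fibroblast markers were not absent, with regions in 4 libraries at COL1A1, 3 at THY1 and 1 at COL1A2.

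The members fell into sequence groups that the rule had not used. The 14-base CTCF core consensus was searched on both strands within 100 bp of the summit of the stronger control peak. It was found with up to 2 mismatches at 81 of 209 members, or 38.8% (95% Wilson interval 32.4 to 45.5). Among all control sites the share was 74%. A further 87 members had no such match but held an AG tract, here at least 5 overlapping copies of AGAGAGA or TCTCTCT in the same 201 bp. Another 22 had neither, and at least 20% of the window was other perfect tandem repeat, and 19 had none of these. The tract and repeat groups were defined after the sequences had been seen. Since 128 of 209 members lacked the core motif, the members are named here by their sequence. Lack of this match does not show that CTCF was not bound, as lost weak sites held it in only 63.8%.

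Motif members that matched the core in full and had the highest fold enrichment after CTCF siRNA are shown to give the kind of element that persisted with a motif. Sequences are from hg19, on the strand of the motif and 5′ to 3′, with the 14-base core in capitals.
chr21:42441135-42441178, minus strand, intergenic: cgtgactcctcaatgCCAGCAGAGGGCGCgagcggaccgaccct
chr4:182064580-182064623, plus strand, intron of LINC00290: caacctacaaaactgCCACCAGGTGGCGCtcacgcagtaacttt
chr13:43169288-43169331, plus strand, intron of TNFSF11: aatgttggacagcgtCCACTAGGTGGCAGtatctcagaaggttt
chr3:175659399-175659442, minus strand, intergenic: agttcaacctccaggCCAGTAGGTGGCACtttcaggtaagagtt
chr21:24164462-24164505, minus strand, intergenic: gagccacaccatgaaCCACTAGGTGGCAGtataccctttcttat
chr4:68259592-68259635, minus strand, intergenic: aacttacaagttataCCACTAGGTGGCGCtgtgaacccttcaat

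Members without a motif that had the highest fold enrichment after CTCF siRNA were all AG tracts, and 5 of them are shown for contrast. Each line is the plus strand of hg19 within 60 bases of the summit, with copies of AGAGAGA or TCTCTCT in capitals.
chr2:155511461-155511581, intergenic: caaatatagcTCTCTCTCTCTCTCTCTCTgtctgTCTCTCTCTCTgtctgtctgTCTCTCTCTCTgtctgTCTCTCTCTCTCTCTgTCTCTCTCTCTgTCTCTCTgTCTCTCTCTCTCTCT
chr15:71751647-71751767, intron of THSD4: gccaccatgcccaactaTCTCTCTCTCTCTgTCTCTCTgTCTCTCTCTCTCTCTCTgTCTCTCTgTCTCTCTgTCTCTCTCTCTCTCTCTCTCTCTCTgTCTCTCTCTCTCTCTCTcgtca
chr21:28941718-28941838, intergenic: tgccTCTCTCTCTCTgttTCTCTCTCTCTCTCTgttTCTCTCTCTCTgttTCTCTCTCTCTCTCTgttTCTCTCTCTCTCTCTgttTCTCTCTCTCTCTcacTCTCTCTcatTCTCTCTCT
chr5:147144468-147144588, intron of JAKMIP2: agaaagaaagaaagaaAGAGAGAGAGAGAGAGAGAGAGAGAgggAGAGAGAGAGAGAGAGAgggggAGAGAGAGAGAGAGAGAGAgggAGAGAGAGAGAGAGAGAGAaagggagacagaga
chr10:126787273-126787393, intron of CTBP2: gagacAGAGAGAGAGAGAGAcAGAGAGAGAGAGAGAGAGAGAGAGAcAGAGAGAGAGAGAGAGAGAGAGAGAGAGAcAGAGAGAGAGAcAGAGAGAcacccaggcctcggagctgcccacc

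The groups differed in how fold enrichment changed between control and CTCF siRNA. At the 81 motif members the median fold enrichment was 9.65 and 11.6 in the control libraries and 6.93 and 7.44 after CTCF siRNA. At the 87 AG tract members without a motif the order was the opposite, with medians of 6.49 and 9.02 in control and 10.7 and 12.4 after CTCF siRNA. The median ratio of the mean siRNA to the mean control value was 0.69 for motif members, 1.52 for AG tract members, 1.46 for other tandem repeats and 1.42 for the remaining 19. Within replicate numbers the AG tract medians were 1.62 and 1.34, and the motif medians 0.77 and 0.67. For comparison, the 2837 strong persistent sites had medians of 0.42 and 0.55. The rule capped the control strength of members and not of strong sites, so it favoured higher ratios at members.

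Fold enrichment was higher after CTCF siRNA at 129 of 209 members, against 6.66% of all 3091 persistent sites, a share that includes them. Of the 129, 88 held an AG tract, with or without a motif, and 10 held the core motif. In the AG tract group without a motif, 85 of 87 were higher by the mean and 76 in both replicates. Among motif members 10 of 81 were higher by the mean and 4 in both replicates. All 22 members with other tandem repeats were higher by the mean, and 20 of them in both replicates. These values chose the members and are not scaled between libraries, so they describe the lists and carry no test.

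**Figure D1:**
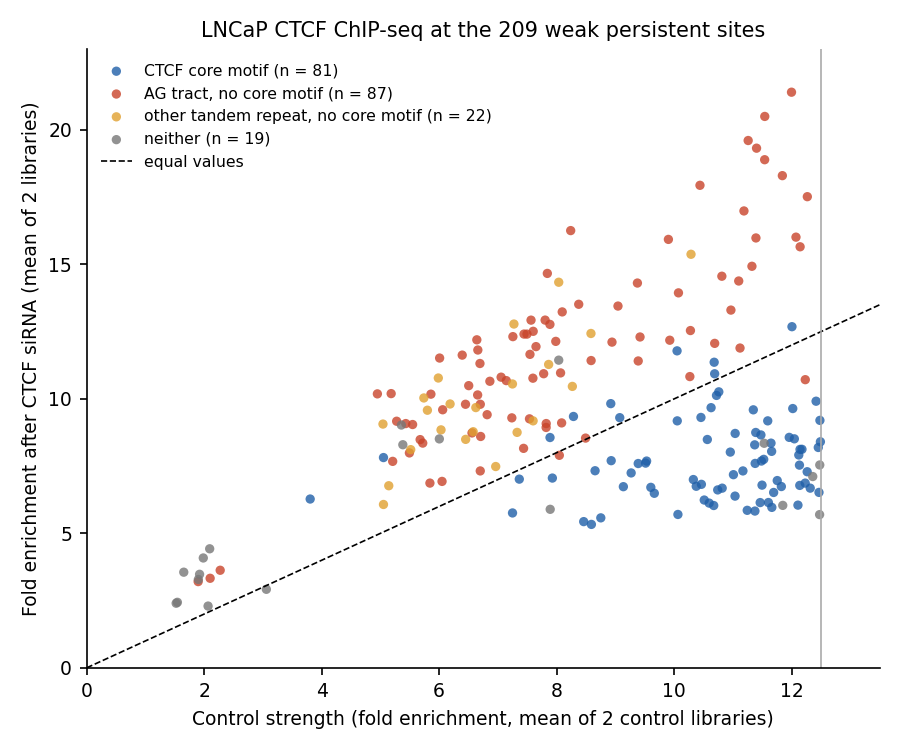
Control strength (x axis, fold enrichment, mean of 2 control libraries) against fold enrichment after CTCF siRNA (y axis, mean of 2 libraries) at the 209 members, coloured by sequence group, with a dashed line of equal values and a grey line at the strength limit. AG tract sites lie above the dashed line in 85 of 87 cases and motif sites below it in 71 of 81.

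Single sites are given as examples and add no support to the contrast. The tracts were picked for the highest fold enrichment after CTCF siRNA among members under the strength limit. That choice favoured siRNA values above control. The intergenic tract 42846 bp from KCNJ3, a potassium channel gene, gave 10.3 and 12.8 in control and 22.7 and 18.4 after siRNA. Every siRNA library was above every control library there.

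At the tract in THSD4 the values were 8.84 and 13.7 in control, and 20.7 and 18.5 after CTCF siRNA. The tract in CTBP2, the gene of a transcriptional corepressor, gave 10.2 and 13.5 in control and 20.1 and 16.5 after siRNA. In JAKMIP2, at chr5:147144356-147144711, the control values of 9.58 and 13.5 lay on either side of the replicate 1 siRNA value of 13.2, and replicate 2 reached 24.6. Of these tracts the JAKMIP2 site alone had overlapping values between control and siRNA.

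The motif members named here were lower or mixed. At the intergenic motif on chromosome 21, 98567 bp from the protease gene BACE2, fold enrichment was 13.5 and 7.90 in control and 9.10 and 12.8 after siRNA. The intronic motif in TNFSF11, which encodes the osteoclast cytokine RANKL, gave 13.3 and 9.90 in control and 7.38 and 11.0 after siRNA. The motif at chr3:175659267-175659604 gave 10.6 and 12.2 in control, and 8.27 and 9.24 after siRNA. Values overlapped between control and siRNA at BACE2 and TNFSF11, and did not at the chromosome 3 site, where both siRNA values were lower.

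The share of members with a motif depended on strength. Below a strength of 7.5, 4 of 69 members held the core motif and 37 were AG tracts. From 7.5 to 10 the counts were 17 and 28 of 52. From 10 up to the limit, 60 of 88 members held the motif and 22 were AG tracts. The members' motif shares were 5.80%, 32.7% and 68.2% in order of rising strength. Lost weak sites, whose peak was called in neither siRNA library, held it in 55.2%, 66.2% and 73.4%. The gap between members and lost sites was thus widest in the weakest band.

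Over all strengths, lost weak sites held the motif in 63.8% of 15873, a difference of −25.1 percentage points for members (95% Newcombe interval −31.4 to −18.3). Strong persistent sites held it in 92.2%, a difference of −53.4 points for members (−59.8 to −46.6). The 45 weak persistent sites removed through the low-cell lists held it in 82.2%, so that step of the rule took away mostly motif sites. With these 45 kept, 46.5% of 254 sites held the motif. The intervals cover counting error only.

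**Figure D2:**
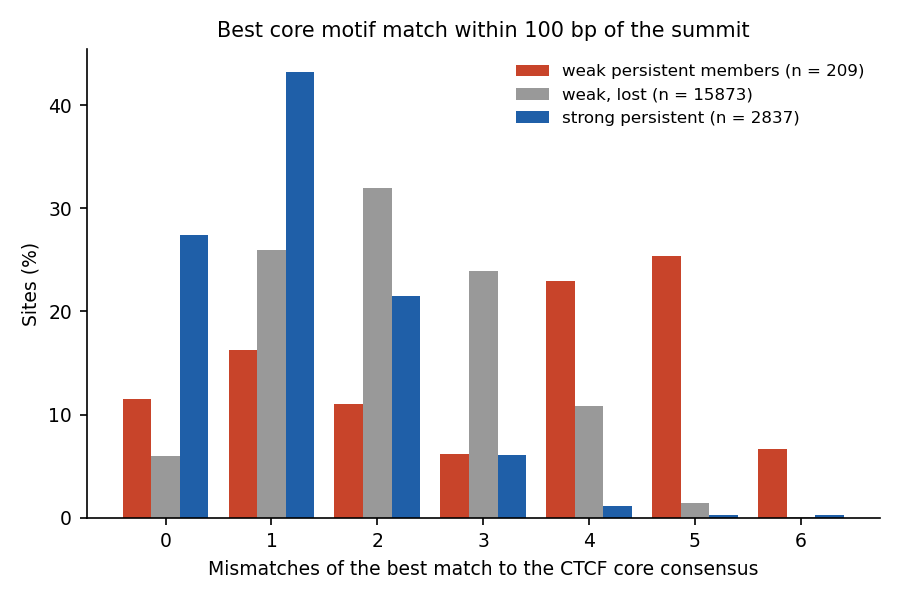
Number of mismatches between the CTCF core consensus and its best match within 100 bp of the summit (x axis) against the percentage of sites (y axis) for members, lost weak sites and strong persistent sites. Members have one group at 0 to 2 mismatches and a larger group at 4 and 5 mismatches, where 23.0% and 25.4% of them lie.

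Among motif members a full match was found at 24 of 81 (29.6%, 95% Wilson interval 20.8 to 40.3) and up to 1 mismatch at 58 of 81. Of the sites with a core motif, full matches made up 29.8% of the strong persistent and 9.33% of the lost weak sites. The share at motif members was thus above that at lost weak sites. The core lay on the plus strand at 45 of 81. Its centre was within 50 bp of the summit at 76 of 81, with a median distance of 17.0 bp.

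AG tracts were found at 90 of 209 members (43.1%), 3 of them beside a core motif, against 0.641% of all control sites. Lost weak sites held a tract in 0.246%, strong persistent sites in 0.846% and the 45 removed sites in 4.44%. The difference between members and lost weak sites was 42.8 percentage points (95% Newcombe interval 36.3 to 49.6). In the 87 tract members without a motif, the window held a median of 29 copies of the 7-base unit, from 6 to 69. The longest perfect repeat had a median length of 31 bp, and its unit was AG in 68 of 87. The tract was centred within 50 bp of the summit at 86 of 87.

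**Figure D3:**
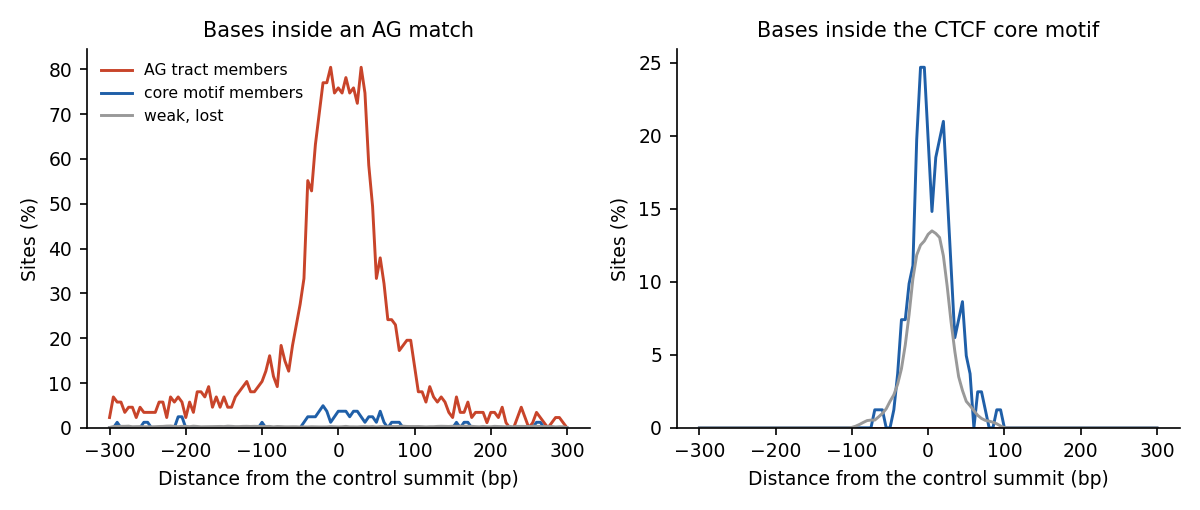
Distance from the control summit (x axis, bp) against the percentage of sites (y axis) whose base there lies in a copy of AGAGAGA or TCTCTCT (left panel) or in the core motif (right panel). Tracts of the AG tract members and cores of the motif members are both centred on the summit, and the lost weak sites show almost no tract. The core was searched only within 100 bp.

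Seen from the sequence, 214 control sites held an AG tract and 116 of them (54.2%) had a peak in both CTCF siRNA libraries, against 9.26% of all control sites. The tracts that persisted were 90 members, 24 strong sites and 2 of the removed sites. Of the remainder, 39 were lost weak sites, 29 were weak sites with a peak in only 1 siRNA library, and 30 were strong sites that did not persist. In the weakest band, 51.9% of 77 tract sites persisted and 0.172% of 3493 core motif sites did. From 10 up to the limit the shares were 64.7% of 34 and 2.42% of 3473.

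The same count was made over all peaks of each CTCF library. In LNCaP, 226 and 447 control peaks and 181 and 420 siRNA peaks had a tract at the summit. While the lists shortened, the share of tract peaks was 0.595% and 0.966% in control and 4.88% and 5.44% after CTCF siRNA. Standard IMR90 libraries gave 1.12% and 1.57% in control, and 2.25% and 3.39% after siRNA. In low-cell IMR90 the shares were 0.268% and 0.246% in control, and 1.30% and 0.567% after siRNA.

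The number of tract peaks was within a similar range in both arms of each standard experiment, so the higher share went with shorter lists. In the 4 standard IMR90 libraries the number was 400 to 629, and in the 4 low-cell ones 11 to 66. These counts were chosen after seeing the data and include lists that the rule used, so they are a description and carry no test.

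**Figure D4:**
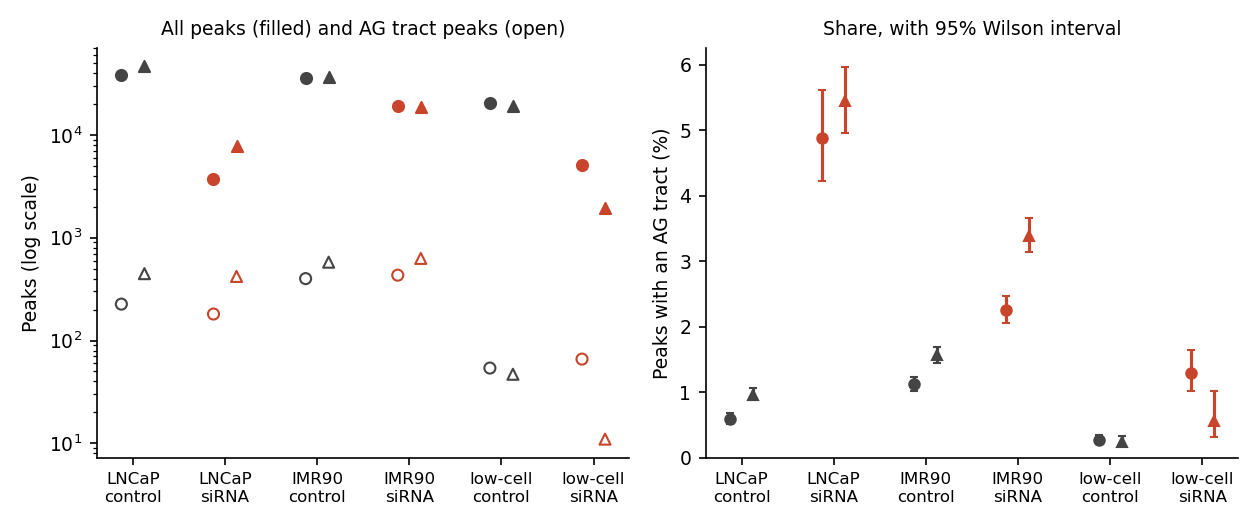
Peaks per CTCF library (left, log axis, filled symbols for all peaks and open symbols for peaks with an AG tract) and the percentage of peaks with a tract (right, bars are 95% Wilson intervals). Circles are replicate 1, triangles replicate 2, grey is control and red CTCF siRNA. Open symbols stay between 181 and 629 in the standard libraries while the filled ones fall, and lie between 11 and 66 in the low-cell ones.

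IMR90 lists that the rule did not use separated the groups further. Of all members, 59.3% and 75.1% had a peak in the standard IMR90 control libraries and 64.6% and 73.7% in the CTCF siRNA libraries, a difference of 1.91 points that lay within the spread of replicates (two-sided exact permutation p = 1.0, where 2 libraries against 2 cannot give less than 0.33). Lost weak sites went from 60.5% and 61.9% to 24.3% and 23.9%, without overlap between the arms (exact permutation p = 0.333). Strong persistent sites had 98.1% and 98.7% in control and 97.3% and 97.0% after siRNA. Of the 45 removed sites, 93.3% had a peak in both siRNA libraries. Keeping these peaks was thus not particular to the members. The control lists were longer, and with lists cut to equal length by rank the difference for members was 34.2 points.

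Among motif members, 93.8% and 95.1% had a standard IMR90 control peak and 93.8% and 92.6% a CTCF siRNA peak. AG tract members had a peak in 44.8% and 71.3% in control and in 56.3% and 69.0% after siRNA. A peak in both siRNA libraries was found at 73 of 81 motif members and 49 of 87 AG tract members, against 45.5% of all control sites. In both control libraries the counts were 76 of 81 and 38 of 87, against 72.6%. The difference between the groups in the siRNA libraries, AG tract minus motif, was −33.8 points (95% Newcombe interval −45.3 to −20.8).

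Where a site had a peak in both arms of a standard IMR90 replicate, motif members had median fold enrichments of 14.2 in control and 14.1 after siRNA in replicate 1, and 16.1 and 15.9 in replicate 2. AG tract members had 3.34 and 3.36 in replicate 1, and 4.00 and 3.94 in replicate 2. Within each IMR90 library the tract sites thus had the lower fold enrichment. The ratio of siRNA to control had a median of 0.87 and 1.01 at motif members and 0.97 and 0.98 at AG tract members. At lost weak sites with both peaks it was 0.62 in both replicates.

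The highest values of members in the standard IMR90 siRNA libraries were at motif sites. At chr16:70687611-70688022, 203 bp from a start of IL34, a cytokine gene, they were 22.1 and 19.8 in control and 32.8 and 30.1 after siRNA. The intronic site in TPRG1 at chr3:188672430-188672796 gave 24.9 and 20.2, and 26.6 and 27.5. Both sites had higher values in IMR90 after siRNA than in control, without overlap. They were picked on these siRNA values, which favours values above control. Among motif members with a peak in both arms, 24 of 73 were higher after siRNA in replicate 1 and 37 of 73 in replicate 2. The site near OXGR1, a metabolite receptor gene, gave 27.9 and 32.8, and 21.4 and 32.3, so that the arms overlapped there.

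Low-cell IMR90 control libraries gave the sharpest separation. A peak was found at 71 and 66 of 81 motif members and at 1 and 0 of 87 AG tract members. With 0 of 87 in replicate 2, the 95% Wilson interval reaches up to 4.23%. In both libraries together the share was 77.8% for motif members and 46.1% for all control sites. The difference of AG tract minus motif members was −77.8 points (95% Newcombe interval −85.5 to −66.7). None of the 22 members with other tandem repeats had a low-cell control peak, and 11 of them had a peak in standard IMR90 control replicate 2.

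The low-cell siRNA lists were used by the rule, which bars a peak in both. Replicate 1 held a peak at 54 of 81 motif members and 2 of 87 AG tract members, and replicate 2 at none of either group. The labels name Salmon Sperm DNA/Protein A agarose for pre-clearing and capture in the standard protocol and a kit in the low-cell one. The methods also give other alignment and duplicate removal for the low-cell reads. The methods supplement states fewer and longer reads for the low-cell than for the standard IMR90 libraries. The low-cell control lists held 20179 and 19097 peaks, against 35717 and 36887 in standard IMR90 control. These differences cannot be told apart, and their part in the absence of AG tracts was not tested.

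**Figure D5:**
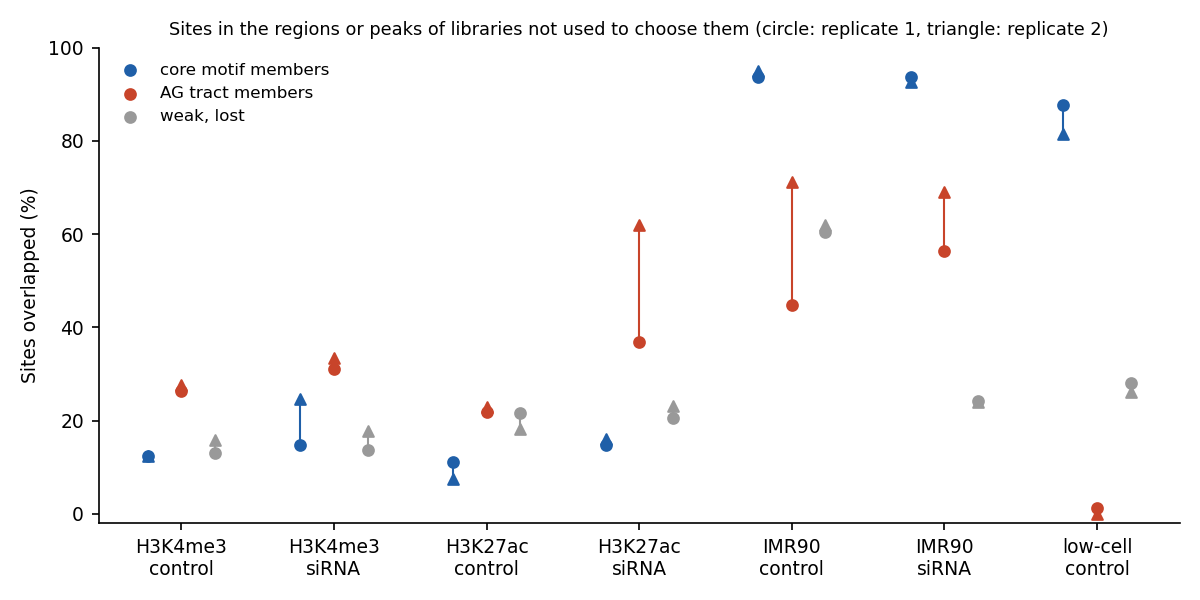
Percentage of sites (y axis) overlapped by a region or peak in each library that did not choose them (x axis, LNCaP histone marks, standard IMR90 CTCF and low-cell IMR90 CTCF control), for motif members, AG tract members and lost weak sites. Circles are replicate 1, triangles replicate 2, and lines join replicates. In low-cell control the motif members lie above 80% and the AG tract members at or below 1.15%.

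In LNCaP, members lay in H3K4me3 regions of all 4 libraries at 41 of 209 (19.6%), against 11.3% of all control sites and 11.4% of lost weak sites, a difference of 8.23 points to the latter (95% Newcombe interval 3.39 to 14.2). The 45 weak persistent sites removed through the low-cell lists were at 24.4%, a difference of −4.83 points for members (−19.8 to 6.97). Motif members were at 9.88%, AG tract members at 19.5% and the 19 members of no sequence group at 73.7%. By library the share of members was 24.9% and 24.4% in control and 27.3% and 31.6% after CTCF siRNA (two-sided exact permutation p = 0.333). Strong persistent sites had 16.3% and 23.2% in control and 21.1% and 32.6% after siRNA, with overlap between the arms. With the 4 lists cut to equal length by rank, the difference between the arms for members changed sign, to −0.478 points.

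H3K27ac regions covered 22.5% and 20.1% of members in control and 31.1% and 43.5% after CTCF siRNA. The difference of 16.0 points came with no overlap between the arms, and its two-sided exact permutation p was 0.333, the smallest possible here. All control sites had 20.6% and 17.4%, and 19.7% and 22.7%, with overlap between the arms. Strong persistent sites had 14.8% and 12.8%, and 17.0% and 20.6%, also without overlap, so a higher share after siRNA was not particular to the members. AG tract members went from 21.8% and 23.0% to 36.8% and 62.1%, and motif members from 11.1% and 7.41% to 14.8% and 16.0%. The lists held 86949 and 69949 regions in control and 94415 and 98973 after siRNA, and with lists of equal length the difference was 9.09 points. It was 9.81 points without H3K27ac siRNA replicate 2, 8.39 when the members were chosen without CTCF siRNA replicate 1, and 7.56 over members without an AG tract.

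In all 4 H3K27ac libraries, 37 of 209 members (17.7%) lay in a region, against 13.6% of all control sites. The regions over AG tract members were centred near the summit. In CTCF siRNA replicate 2 the centre lay within 250 bp at 45 of 54 such regions, and at 7 of 13 over motif members and 27.9% over lost weak sites. In control replicate 1 it did so at 15 of 19, 4 of 9 and 33.9%. Over AG tract members it did so at 24 of 32 in siRNA replicate 1 and 12 of 20 in control replicate 2. The list of siRNA replicate 2 had the widest regions, with a median of 1700 bp against 1300 to 1350 bp in the others. Its median width was 1250 bp over AG tract members, 1950 bp over motif members and 2700 bp over lost weak sites. In control replicate 1 these widths were 1100, 1750 and 2200 bp. A wide region can have its centre further from a summit, and the part of width in this contrast was not tested.

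Most members of lowest strength lay near assembly gaps, 7 of the 11 with a strength below 3. Of 9 members within 1000000 bp of a gap of at least that length, 8 lay in regions of all 8 histone libraries, as did 29 of all 209 members. The share of all control sites in all 8 was not counted, and in the 4 H3K4me3 libraries alone it was 11.3%. The counts near gaps are a description, given without a share over all control sites. The lowest strengths were 1.52 and 1.54 at chr6:58777966-58779300 and chr6:58777451-58777912, both next to an assembly gap, and 1.65 at chr10:42385182-42385428. Fold enrichment at the first was 1.58 and 1.47 in control, and 2.95 and 1.85 after siRNA. At the chromosome 10 site it was 1.69 and 1.62 in control and 4.09 and 3.02 after siRNA, the highest ratio of all members at 2.15. None of these 3 sites had a peak in an IMR90 control list. The first had a standard IMR90 siRNA peak in replicate 2 (1.29) and the chromosome 10 site a low-cell siRNA peak in replicate 2 (1.44).

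At the upper end, the strongest members were an intergenic motif site 7101 bp from IGSF21 at chr1:18426997-18427399 (12.49), an exonic motif site of the olfactory receptor gene OR1I1 (12.48) and a site without a motif 7697 bp from RAB21 (12.48). The sites just outside the limit had strengths of 12.51, 12.53 and 12.57, and all held the core motif with 0 or 1 mismatch.

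Few members were promoters. The summit lay within 1000 bp of a protein-coding start at 9 of 209 members (4.31%), against 7.68% of all control sites and 8.44% of lost weak sites, a difference of −4.13 points to the latter (95% Newcombe interval −6.20 to −0.431). Strong persistent sites were at 5.46%, a difference of −1.16 points for members (−3.37 to 2.60), so the low share was not particular to them. The summit of members lay in an intron of a protein-coding gene at 70, between genes at 99 and in coding sequence at 0. Exons of protein-coding genes held 6 members, all outside the coding sequence. Among AG tract members the counts were 36, 34, 0 and 2 of 87.

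Promoters with H3K4me3 in all 4 libraries are shown by name. The AG tract 319 bp from a start of MDGA1, which encodes a cell surface protein of neurons, gave 6.20 and 13.9 in control and 11.4 and 16.5 after siRNA, so the arms overlapped. The tract 879 bp from a start of the collagen gene COL6A1 gave 8.38 and 10.5, and 10.7 and 13.9, without overlap.
chr6:37665918-37666038, MDGA1, plus strand of hg19, marked as above: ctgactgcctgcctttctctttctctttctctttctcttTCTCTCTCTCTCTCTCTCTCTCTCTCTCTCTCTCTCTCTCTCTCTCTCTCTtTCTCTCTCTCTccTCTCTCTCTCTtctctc

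Of 4 motif members at promoters, those of IL34 and ALG10B, an enzyme gene of N-glycan synthesis, had H3K4me3 in all 4 libraries, and those 168 bp from AIM2 and 947 bp from TTR had it in 0. The ALG10B site, 225 bp from its start, gave 7.73 and 9.19 in control and 6.04 and 4.84 after siRNA, and had peaks in all 4 standard IMR90 libraries. Of the gene lists searched within 10000 bp, only the clustered protocadherins held a member, 1 of 45 control sites there. It lay 82 bp from a start of PCDHB3, a neuronal adhesion gene, had no core motif within 2 mismatches and gave 12.1 and 11.0, and 9.69 and 7.01. It had no peak in any IMR90 list. HOX genes had 23 control sites and imprinted genes 37. Zinc finger genes had 343, the CTCF and cohesin genes 28, androgen-induced genes 22 and luminal prostate factors 8, with 0 members in each of these lists. Over all control sites 209 of 33377 were members, so lists of these sizes would hold few members or none at that share. The counts are therefore no result about these genes.

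Short motifs of other factors were searched as exact matches on both strands within 100 bp. AAGATGG, of YY1, was in 9 of 81 motif members and 1 of 87 AG tract members, against 4.45% of control sites. It matches a stretch of the CTCF core consensus but for 1 base, so a core within the allowed mismatches can itself hold it. Whether these matches lay inside the core was not counted. CCGGAAG, of ETS factors, was in 3 of 209 members (1.52% of control sites) and GCATGCG, of NRF1, in 1 (0.785%). GGGCGGG, of SP1, was in 6 of 209 (3.78%), and TGANTCA, of AP-1, in 5 of 209 (5.23%), none of them an AG tract member. TGTTTAC, of forkhead factors, was in 5 (3.00%). These counts are descriptions and no match says only that the letters were not in the window.

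GC content had a median of 41.8% at motif members, 48.3% at AG tract members and 45.8% at lost weak sites, and the number of CpG dinucleotides a median of 3, 1 and 2. Members were spread out, with 1 neighbouring pair within 1000 bp and 3 within 10000 bp. Another control site lay within 10000 bp at 63 of 209 members (30.1%) and 31.5% of all control sites. Chromosomes 1 and 8 held 18 members each, 2 held 17 and X 16. As a share of its control sites, chromosome 21 had the most (1.73%), followed by X (1.61%), 18 (1.48%) and 8 (1.11%).

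The makeup of the set rests on the shorter siRNA lists. Without CTCF siRNA replicate 1 the rule gave 572 sites, of which 68.0% held the motif, 20.8% an AG tract and 31.1% were higher after siRNA. Without low-cell siRNA replicate 2 it gave 151 sites, with 17.9%, 58.3% and 82.1%.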

How the data were processed

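ChIP-seq peak lists of 20 libraries were used as deposited. Sample labels gave the groups and replicate numbers. The authors aligned standard libraries to hg19 with Bowtie, discarding ambiguous and clonal reads, and low-cell libraries with BWA, removing duplicates with the kit maker's script for molecular identifiers. CTCF peaks were called per library with MACS2, and histone regions with PeakRanger. The deposited CTCF lists give fold enrichment, a ratio over local background with no scaling between lists, and −log10 p-values and q-values. The deposited histone lists give a score whose meaning is not stated, used for ranking only. A site without a peak fell below a calling threshold, so its binding is not known to be absent.

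Peaks were merged by an overlap of at least 1 bp. Sequence came from the GRCh37 genome, which is the build of the lists, and genes from GENCODE release 44 lifted to it. Coordinates count from 1. Strength bands ended at 7.5, 10 and the limit. Tandem repeats were perfect, with units of 1 to 6 bases, at least 12 bases and at least 3 units. Shares carry 95% Wilson intervals and differences 95% Newcombe intervals, for counting error only. Shares of members in histone and standard IMR90 lists were compared between arms by two-sided exact permutation. Members, lists and tests were chosen with earlier results of these data known. Named sites were those outside chromosome 8 highest or lowest in control strength, highest in siRNA to control ratio, highest after siRNA with a full or no motif, highest in IMR90 siRNA, at promoters with H3K4me3, or in a gene list. The scripts were tested on simulated intervals and sequences. Python 3.11.15, numpy 2.4.6, pandas 2.3.3, scipy 1.17.1, pysam 0.24.0 and matplotlib 3.10.9 were used. Alternatives covered overlap, q-value, strength limit, low-cell filter, motif and promoter settings, list length and leaving out each library. The reference was not soft-masked, so no repeat-masked share is given. Some sites that the naming rule picked are not reported here.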

Additional observations from a re-analysis of the deposited data

How the results depend on the processing

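Of 133 alternative values for 9 results, 89 were classed as the same as the main value, 38 as moved and 6 as reversed. For the H3K4me3, H3K27ac and standard IMR90 differences, a value was classed by its sign alone, without regard to spread. The standard IMR90 difference of 34.2 points with lists of equal length was thus among the 89, against 1.91 in the main setting. Member counts of 150 to 296 were also classed as the same as 209. A strength limit of 10 gave 121 members, with 17.4% holding the motif, 56.2% an AG tract, 85.1% higher after CTCF siRNA and 14.0% with a low-cell IMR90 control peak, against 34.9% over both libraries at the limit used. A limit of 15 gave 327 members, with 58.1%, 29.1% and 42.8% for the first 3 of these. With the low-cell siRNA filter left out, 46.5% held the motif and 36.2% a tract. With a peak in either low-cell siRNA list dropped, 18.0% held the motif, 58.7% a tract and 82.0% were higher after siRNA. With 1 mismatch, 27.8% held the motif. With q-values up to 0.001, 37.4% had a low-cell control peak. A promoter distance of 2500 bp gave 9.57%. Lists of equal length turned the H3K4me3 difference to −0.478 points and raised the standard IMR90 difference to 34.2 points. Among members without an AG tract, a choice made after seeing the data, 65.5% held the motif, 60.9% had a low-cell control peak and the standard IMR90 difference was −1.68 points, and among motif members the last 2 were 84.6% and −1.23. The causes of these moves were not tested beyond what each setting removes. Leaving out each library in turn gave 151 to 572 members, a motif share of 17.9% to 68.0%, a tract share of 20.8% to 58.3%, 31.1% to 82.1% higher after siRNA, a low-cell control share of 13.2% to 59.3% and a standard IMR90 difference of −5.98 to 9.81 points. Without CTCF siRNA replicate 1 came the ends 572, 68.0%, 20.8%, 31.1% and 59.3%, and without low-cell siRNA replicate 2 the others apart from the IMR90 difference. Where leaving out a histone or IMR90 library left 1 in an arm, the value carries no test. With the replicate number as a block the differences stayed at 4.78 points for H3K4me3 (exact permutation p = 0.50), 16.0 for H3K27ac (p = 0.50) and 1.91 for standard IMR90 (p = 1.0), and the block changed no call. No label says what a number shares, and the deviations of same-numbered libraries over the members correlated at 0.0022, −0.061 and 0.34. Lists hold called peaks only, so depth limits every absence given here.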

Other observations

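AG tracts were not limited to weak sites. Of 60 strong persistent sites with a higher mean fold enrichment after CTCF siRNA than in control, 19 held a tract and 38 the core motif. Of the 17 such sites removed through the low-cell lists, 1 held a tract and 11 the core motif. Outside the control sites, 47 LNCaP regions had a peak in each siRNA library but in no control library. Of these, 0 held the core motif at up to 2 mismatches, 5 held an AG tract and 14 had perfect tandem repeats over at least 20% of the window. Among the 22 members with other tandem repeats, the unit of the longest repeat was AC in 5 and ACAG in 5. A telomere-like AACCCT unit was found in 1.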
